A study of Mus musculus with 26 samples.

Results

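A set of 10 genes that damp signalling through the kinase ERK was followed across brown preadipocytes carrying different insulin receptors. They were 5 dual-specificity phosphatases (Dusp1, Dusp4, Dusp5, Dusp6, and Dusp7), 3 Sprouty genes (Spry1, Spry2, and Spry4), and 2 Spred genes (Spred1 and Spred2), taken by name from 52962 gene identifiers. All 10 had expected counts, passed the filter on low counts, and were among the 15402 genes tested. Before insulin, Dusp1, Dusp4, Dusp6, Spry4, and Spred2 were lower in all 4 receptor lines than in cells without receptor. After insulin, Dusp5 rose 3.98-fold, Dusp1 2.89-fold, and Dusp6 2.35-fold in cells with the full-length receptor.

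The insulin receptor (IR) is a tyrosine kinase that, once insulin binds, recruits adaptors which activate Ras and then the kinases RAF, MEK, and ERK. Active ERK enters the nucleus and turns on genes that in turn switch the pathway off. Dual-specificity phosphatases remove phosphate from both the threonine and the tyrosine of the ERK activation loop, Sprouty proteins act at the membrane between receptor and RAF, and Spred proteins bring the Ras-inactivating protein neurofibromin to the membrane. Several of these genes are therefore used as readouts of past ERK activity as well as being brakes on it.

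All cells were immortalised mouse brown preadipocytes with floxed alleles of both the insulin and the IGF1 receptor. DKO cells had lost both receptors through a Cre adenovirus and a sort for GFP. The other lines were DKO cells stably transduced with a retrovirus for a FLAG-tagged human receptor, so every group shared both deletions and the immortalisation. The methods also describe an empty-vector virus put into DKO cells, and selection in hygromycin after transduction, while the labels of the control libraries say only DKO. IR cells carried the full-length B isoform, K1030R cells (KD in the labels) a kinase-dead receptor, ∆CT cells (CT in the labels) a receptor without its C-terminal tail, and JMO cells a receptor that kept only the juxtamembrane stretch of its intracellular part. After 6 h without serum, dishes either stayed unstimulated, here called basal, or received 100 nM insulin for 15 min. There were 26 libraries in 9 groups, with 3 dishes per group, 2 dishes for ∆CT with insulin, and DKO cells in the basal state only. Each receptor was present as 1 line, so error terms describe dishes of that line, and the receptor cannot be told apart from other differences between lines.

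Library totals ran from 17228982 to 24694828 counts, and levels are given as CPM, counts scaled to library size with TMM factors. The lowest member count in a library was 57, for Spry4, and the highest was 3518, for Spred1. Insr was measured at 23.8 ± 1.32 CPM (SD, n = 3) in DKO cells and at 67.7 to 78.4 CPM as basal means of the receptor lines. Igf1r was at 27.1 ± 2.06 CPM (SD, n = 3) in DKO cells and at 30.1 to 35.1 CPM in the receptor lines. A count over a whole gene does not separate the deleted exon from the rest of a transcript, so neither value checks the deletion. The paper reports that neither receptor was seen in DKO cells by qPCR or immunoblot. Reads were placed on mouse transcripts while the added receptors were human, and how far Insr counts reflect the added receptor was not tested. Of 10 preadipocyte and mesenchymal markers 7 were tested, Pdgfra, Pdgfrb, and Col1a1 among them, while Ebf2, Dlk1, and Zfp423 stayed at or below 0.403 CPM in every library. The summed level of this marker list differed between lines: it ran from 4000 to 4280 CPM in DKO, 4560 to 4600 in JMO, 6730 to 7100 in K1030R, 6980 to 7430 in ∆CT, and 7620 to 8530 in IR cells before insulin, and its part in the basal differences given here was not tested. Most of that sum was Col1a1, with a mean of 3260 CPM in DKO and 7250 CPM in IR cells. By gene, 4 of the 7 were higher and 3 lower in IR than in DKO cells, against 25.6% and 24.1% of all genes tested. Between DKO and IR cells Ly6a fell from 44.9 to 4.51 CPM (log2 fold change -3.33, adjusted p = 1.82e-23), with changes of -3.96 to -2.06 on the log2 scale in the other lines. The 5 mature brown adipocyte markers summed to at most 0.346 CPM, with Lep at 0 throughout, and the 9 markers of other cell types to 8.97 to 20.6 CPM, mostly Pecam1, with Adgre1 and Myod1 at 0. Ptprc stayed at or below 0.399 CPM. Cd68, a macrophage marker at 1.54 to 3.65 CPM, was lower than in DKO cells in all 4 lines (log2 fold change -0.56 to -0.69). After insulin Cd68 was called higher in IR cells only (0.64, adjusted p = 0.0187). Its means before and after insulin were 1.98 and 3.0 CPM in ∆CT and 2.03 and 2.8 CPM in JMO cells. In K1030R cells they were 1.95 and 1.82 CPM. Its part in the results was not tested.

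Promoter sequence is shown for the 3 members with the largest responses in IR cells, a choice made after their values were seen. Each line is the 250 bases before the annotated start in RefSeq on GRCm38.p6, written 5′ to 3′ on the strand of the gene. The window of Dusp1 is chr17:26508473-26508722 on the minus strand, that of Dusp5 chr19:53528895-53529144 on the plus strand, and that of Dusp6 chr10:99262981-99263230 on the plus strand. Capitals mark cAMP response elements (CRE, full site TGACGTCA and half-site TGACG on either strand) and CArG boxes, the core element of serum response factor sites.
Dusp1: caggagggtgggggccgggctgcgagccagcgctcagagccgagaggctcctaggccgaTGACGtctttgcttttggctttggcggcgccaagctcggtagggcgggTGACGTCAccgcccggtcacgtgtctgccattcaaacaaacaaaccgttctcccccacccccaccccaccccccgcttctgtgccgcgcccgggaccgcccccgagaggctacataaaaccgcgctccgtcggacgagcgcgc
Dusp5: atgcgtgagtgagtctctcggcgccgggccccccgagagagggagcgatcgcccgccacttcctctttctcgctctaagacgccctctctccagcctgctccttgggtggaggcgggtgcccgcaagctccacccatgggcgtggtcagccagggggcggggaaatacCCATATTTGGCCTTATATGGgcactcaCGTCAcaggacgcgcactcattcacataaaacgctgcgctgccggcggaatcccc
Dusp6: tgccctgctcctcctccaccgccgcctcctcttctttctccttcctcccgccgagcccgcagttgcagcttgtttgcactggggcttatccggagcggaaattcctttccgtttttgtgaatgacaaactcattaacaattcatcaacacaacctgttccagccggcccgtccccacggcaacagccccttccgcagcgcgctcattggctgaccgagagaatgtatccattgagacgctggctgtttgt
The Dusp1 window held 1 full CRE at -143 to -136 from the start, with 2 overlapping half-sites inside it, and another half-site at -191 to -187. Dusp5 had 2 CArG boxes side by side, at -82 to -73 and -72 to -63, and a half-site at -55 to -51. Dusp6 held none of these letters in this window. Across 32851 mouse promoter windows of the same length, a full CRE was present in 1.55%, a half-site in 17.8%, and a CArG box in 1.47%. Of the other members with an entry, Spred2 held 1 half-site, and Dusp7, Spry1, Spry2, and Spred1 held none of the 3 motifs. Dusp4 and Spry4 had no entry.

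Basal levels in the receptor lines were compared with DKO cells to ask how the presence of each receptor, without added ligand, went with the level of these brakes. The 4 comparisons share the DKO libraries. In IR cells 1 member was higher and 7 were lower, against 25.6% and 24.1% of all genes tested (edgeR quasi-likelihood test, Benjamini-Hochberg adjusted p below 0.05). In K1030R cells 1 was higher and 6 lower, against 21.2% and 20.4% of all genes. ∆CT cells had 1 higher and 6 lower, against 23.4% and 22.9%. JMO cells had 0 higher and 8 lower, against 16.8% and 17.4%. The median log2 fold change of the 10 members was -0.55 in IR cells, -0.54 in JMO cells, -0.44 in ∆CT cells, and -0.34 in K1030R cells, while the median of all genes was between 0.007 and 0.014. When the change itself had to exceed 1.5-fold, 4 members passed in IR cells, 3 in ∆CT cells, and 2 each in K1030R and JMO cells, against 6.89%, 6.29%, 5.29%, and 2.11% of all genes. Since RNA came from whole dishes, fewer cells with a transcript and less of it per cell cannot be told apart.

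**Figure D1:**
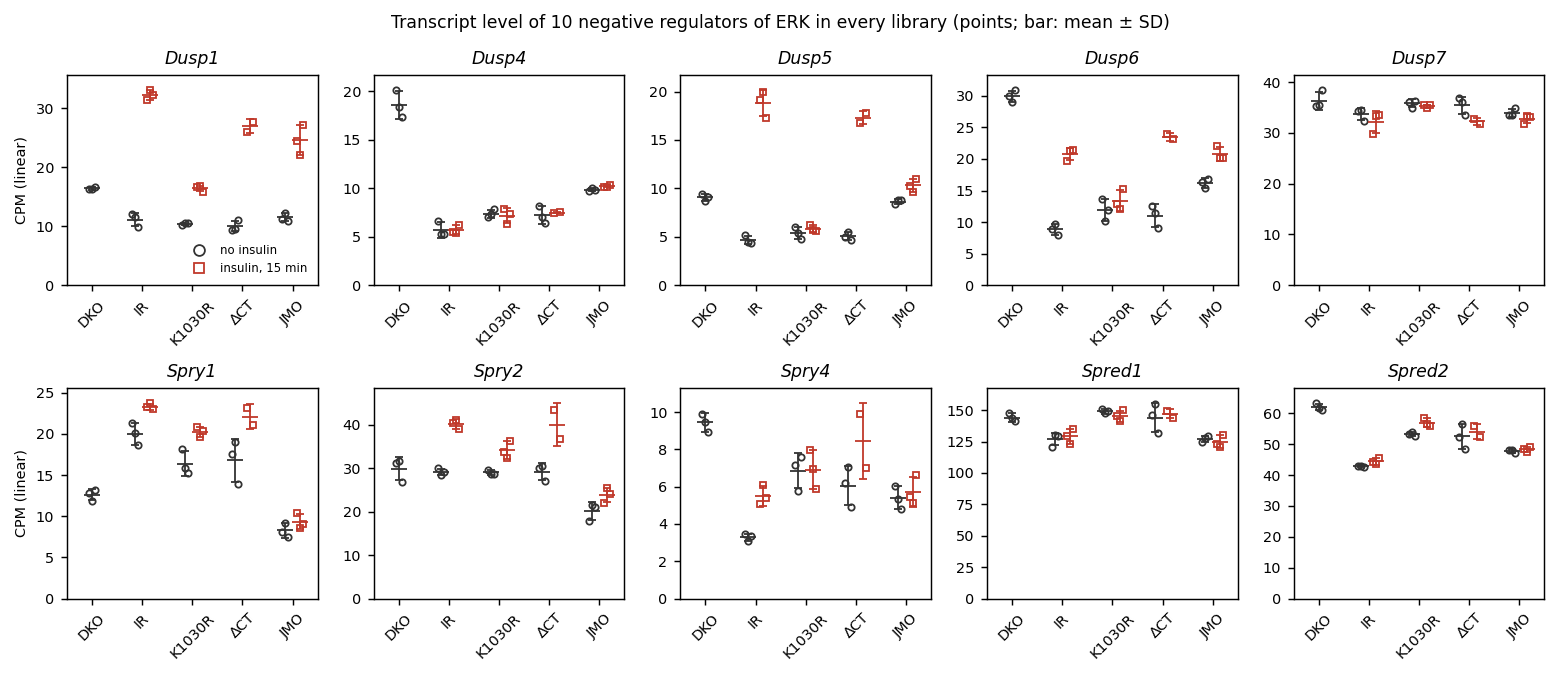
Level of each of the 10 genes in every library, as CPM on a linear axis from 0, by cell line (DKO, IR, K1030R, ∆CT, and JMO) before insulin (black circles) and after 15 min of insulin (red squares). Horizontal bars are means and whiskers SD of 3 dishes, or of 2 for ∆CT with insulin. Dusp1, Dusp5, and Dusp6 stand clear of their basal values after insulin in IR, ∆CT, and JMO cells, and Dusp1 does so in K1030R cells too. Dusp4 is highest in DKO cells.

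Among the nuclear phosphatases, Dusp4 (MKP-2, chr8:34807297-34819894, plus strand) showed the widest basal range. Its DKO libraries were at 20.1, 18.4, and 17.3 CPM, and its IR libraries at 6.66, 5.27, and 5.24 CPM. JMO libraries lay between, at 9.72, 10, and 9.81 CPM, and the 3 groups did not overlap. K1030R libraries were at 6.99, 7.30, and 7.81 CPM and ∆CT libraries at 8.20, 7.04, and 6.42 CPM, which overlapped each other. Relative to DKO the log2 fold change was -1.69 (SE 0.10, adjusted p = 2.07e-16) in IR, -1.33 (SE 0.097, adjusted p = 1e-13) in K1030R, -1.36 (SE 0.096, adjusted p = 3.99e-14) in ∆CT, and -0.91 (SE 0.091, adjusted p = 6.2e-10) in JMO cells, and all 4 passed the 1.5-fold test. In order, DKO was above JMO, JMO above K1030R (log2 difference 0.42, adjusted p = 0.0013), and ∆CT above IR (0.33, adjusted p = 0.0215). K1030R and ∆CT, neighbours in that order, did not differ beyond their spread. The ∆CT to IR step was lost when any of 3 libraries was left out, with an adjusted p of 0.19 without ∆CT replicate 1, 0.102 without IR replicate 2, and 0.099 without IR replicate 3. A fit of only the groups compared did not call it either (adjusted p = 0.0988).

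Dusp5, a nuclear phosphatase specific for ERK (chr19:53529109-53542431, plus strand), split the lines differently. DKO libraries were at 9.46, 8.70, and 9.13 CPM and JMO libraries at 8.34, 8.78, and 8.77 CPM. Values in IR cells were 5.17, 4.51, and 4.40 CPM, in K1030R cells 6.04, 5.44, and 4.76 CPM, and in ∆CT cells 4.98, 5.54, and 4.71 CPM. The JMO range overlapped that of DKO, and both lay above every library of the other 3 lines. The log2 fold change against DKO was -0.95 (SE 0.10, adjusted p = 5.89e-10) in IR, -0.75 (SE 0.10, adjusted p = 9.54e-08) in K1030R, and -0.84 (SE 0.099, adjusted p = 8e-09) in ∆CT cells. In JMO cells it was -0.08 (95% confidence interval -0.26 to 0.11, adjusted p = 0.551). JMO cells were higher than IR cells by 0.87 (SE 0.10, adjusted p = 5.25e-09), than K1030R by 0.68 (SE 0.099, adjusted p = 1.04e-06), and than ∆CT by 0.76 (SE 0.099, adjusted p = 8.34e-08).

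Dusp1 (MKP-1), a nuclear phosphatase that also acts on the stress kinases p38 and JNK, was lower in every receptor line. Its DKO libraries were at 16.3, 16.3, and 16.7 CPM, and the 12 basal libraries of the receptor lines lay between 9.44 and 12.2 CPM, with no overlap. Log2 fold changes against DKO ran from -0.52 in JMO (SE 0.078, adjusted p = 1.95e-06) to -0.72 in ∆CT cells (SE 0.080, adjusted p = 2.6e-09), and none passed the 1.5-fold test. Neighbouring receptor lines did not differ in the order JMO, IR, K1030R, ∆CT, where the largest step was 0.10 on the log2 scale (adjusted p = 0.412). The gene spans 2.88 kb in RefSeq but 56.5 kb in GENCODE (chr17:26505590-26562128, minus strand), where it overlaps Ergic1 on the opposite strand, a gene at up to 138 CPM. Libraries were stranded, and whether the counting used strand is not given in the sources used here.

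Dusp6 (MKP-3), the cytoplasmic phosphatase specific for ERK (chr10:99263231-99267489, plus strand), had the largest basal fall. Its DKO libraries were at 29.9, 29.0, and 30.9 CPM, against 8.84, 9.67, and 8 CPM in IR cells. K1030R libraries were at 13.6, 10.1, and 12 CPM, ∆CT libraries at 12.6, 11.5, and 9.06 CPM, and JMO libraries at 16.3, 15.4, and 16.9 CPM. DKO and JMO each stood apart from every other line, whereas ∆CT overlapped both K1030R and IR. The level in IR cells was 29.5% of that in DKO cells, a log2 fold change of -1.76 (SE 0.098, adjusted p = 1.06e-16). The change was -1.34 (SE 0.094, adjusted p = 8.87e-14) in K1030R, -1.44 (SE 0.094, adjusted p = 1.17e-14) in ∆CT, and -0.88 (SE 0.087, adjusted p = 8.4e-10) in JMO cells, and each passed the 1.5-fold test. JMO cells exceeded IR cells by 0.88 (SE 0.10, adjusted p = 1.02e-08). The difference between ∆CT and IR (0.33, adjusted p = 0.0218) was not called when any of 4 libraries was left out, where its adjusted p was 0.0568 without IR replicate 1, 0.10 without IR replicate 3, 0.189 without ∆CT replicate 1, and 0.0865 without ∆CT replicate 2. It was not called in a fit of only the groups compared (0.0685).

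Dusp7 (MKP-X), the other cytoplasmic ERK phosphatase (chr9:106368632-106375724, plus strand), gave no called difference. All 15 basal libraries lay between 32.4 and 38.4 CPM. Every IR and JMO library was below the lowest DKO library, at 35.2 CPM, while K1030R and ∆CT libraries overlapped those of DKO. The change with the smallest adjusted p was in IR cells, at -0.11 (95% confidence interval -0.21 to -0.01, adjusted p = 0.0632). It was called at -0.14 (adjusted p = 0.0444) without DKO replicate 1 and at -0.11 to -0.13 without stimulated IR replicate 1 (adjusted p = 0.0481) or stimulated JMO replicate 2 (0.0308) or 3 (0.0309). It was also called with RLE scaling (0.0352) and with a filter of at least 10 counts in 4 libraries (0.0391).

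The Sprouty genes did not move as a group. Spry1 (chr3:37639947-37644598, plus strand) was the 1 member above DKO cells, and in JMO cells it went the other way. DKO libraries were at 12.8, 11.9, and 13.2 CPM, IR libraries at 21.3, 20.1, and 18.6 CPM, and JMO libraries at 8.09, 9.23, and 7.48 CPM, so these 3 groups were separate. K1030R cells, at 18.2, 15.9, and 15.3 CPM, and ∆CT cells, at 17.5, 19.0, and 13.9 CPM, were above every DKO library. Against DKO the log2 fold change was 0.66 (SE 0.090, adjusted p = 1.24e-07) in IR, 0.37 (SE 0.093, adjusted p = 0.00123) in K1030R, 0.41 (SE 0.092, adjusted p = 0.000351) in ∆CT, and -0.62 (SE 0.10, adjusted p = 8.21e-06) in JMO cells. JMO cells were below IR cells by 1.28 on the log2 scale, a change of -1.28 (SE 0.096, adjusted p = 1.71e-13). The smaller step from IR down to ∆CT (adjusted p = 0.0261) lost its call without IR replicate 1 (adjusted p = 0.135), IR replicate 2 (0.0647), or ∆CT replicate 3 (0.238). DESeq2 (0.0575) and a fit of only the groups compared (0.137) did not call it either. The step from IR down to K1030R (adjusted p = 0.0106) lost its call without IR replicate 1 (0.0694) or K1030R replicate 3 (0.0735).

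Spry2 (chr14:105891947-105896819, minus strand) was lower in JMO cells, with libraries at 17.9, 21.6, and 21.0 CPM against 31.1, 31.6, and 26.8 CPM in DKO cells. The log2 fold change was -0.57 (SE 0.075, adjusted p = 2.78e-07). IR, K1030R, and ∆CT libraries ran from 27.1 to 30.4 CPM, inside the DKO range, and their changes against DKO lay between -0.04 and -0.02, the widest interval reaching from -0.18 to 0.11. JMO cells were also below IR (-0.54, adjusted p = 3.2e-07), K1030R (-0.53, adjusted p = 8.46e-07), and ∆CT cells (-0.54, adjusted p = 3.62e-07).

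Spry4 (chr18:38586247-38601415, minus strand) was the lowest-count member and fell most in IR cells, where libraries were at 3.46, 3.10, and 3.36 CPM against 9.89, 9.49, and 8.93 CPM in DKO cells. K1030R libraries were at 7.16, 5.79, and 7.61 CPM, ∆CT at 6.21, 7.04, and 4.92 CPM, and JMO at 6.06, 5.36, and 4.81 CPM. Every receptor library was below every DKO library, every IR library was below those of the other lines, and those other lines overlapped. The log2 fold change was -1.50 (SE 0.15, adjusted p = 1.59e-10) in IR cells, past the 1.5-fold test, -0.46 (SE 0.14, adjusted p = 0.00585) in K1030R, -0.63 (SE 0.14, adjusted p = 0.000211) in ∆CT, and -0.79 (SE 0.14, adjusted p = 2.05e-05) in JMO cells. Without K1030R replicate 2 the change in K1030R cells was -0.35 (adjusted p = 0.0616). K1030R cells were above IR cells by 1.04 (SE 0.16, adjusted p = 2.33e-06).

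The Spred genes moved less. Spred2 (chr11:19924375-20024026, plus strand) was at 63.2, 61.8, and 61.1 CPM in DKO cells and at 43.1, 42.8, and 42.6 CPM in IR cells, with the other lines between. Its log2 fold change was -0.53 (SE 0.043, adjusted p = 1.38e-12) in IR, -0.37 (SE 0.043, adjusted p = 1.06e-08) in JMO, -0.24 (SE 0.042, adjusted p = 1.58e-05) in ∆CT, and -0.22 (SE 0.043, adjusted p = 7.74e-05) in K1030R cells. Spred1 (chr2:117121374-117182279, plus strand) was at 148, 144, and 141 CPM in DKO cells. It was lower in IR cells, at 121, 130, and 129 CPM (log2 fold change -0.19, SE 0.042, adjusted p = 0.000358), and in JMO cells, at 125, 128, and 129 CPM (-0.18, SE 0.042, adjusted p = 0.00103). In K1030R and ∆CT cells its changes were 0.05 (95% confidence interval -0.03 to 0.14) and 0.00 (-0.08 to 0.09).

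**Figure D2:**
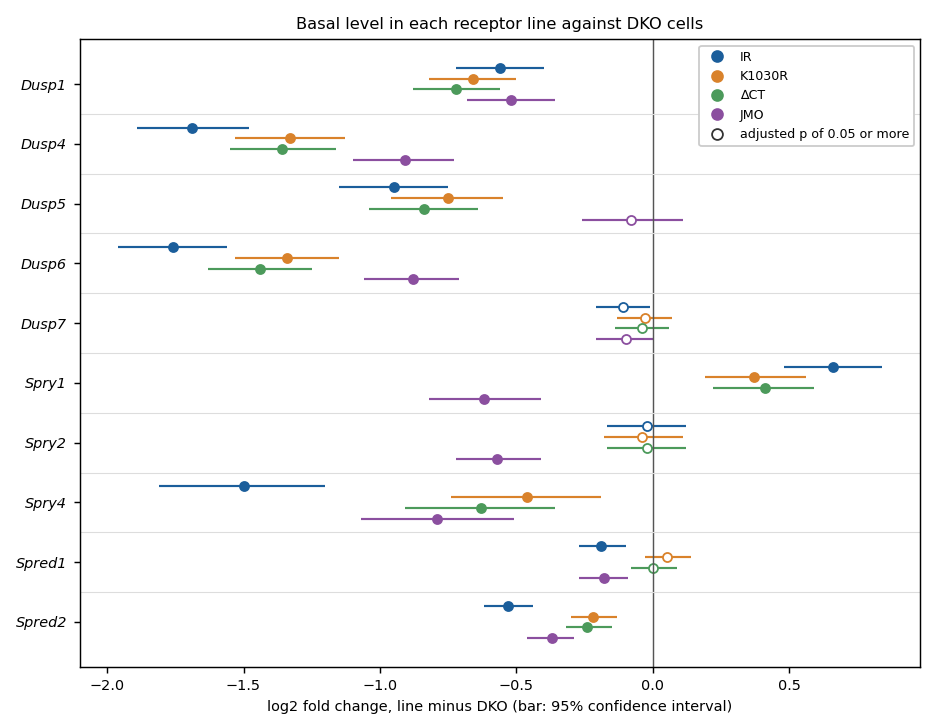
Basal log2 fold change of each gene in IR, K1030R, ∆CT, and JMO cells relative to DKO cells, with 95% confidence intervals, where filled points had an adjusted p below 0.05 in edgeR. Dusp4 and Dusp6 lie furthest to the left, Dusp7 lies between -0.11 and -0.03, and Spry1 is to the right of 0 in 3 lines and at -0.62 in JMO cells.

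Between receptor lines, K1030R and ∆CT cells gave no called difference in any of the 10 members (edgeR, with 0 members at an unadjusted p below 0.05 as well), against 3.43% of all genes tested. Their largest difference was -0.17 for Spry4, with Dusp6 at -0.10. Compared with IR cells, K1030R cells had 5 members higher and 1 lower and ∆CT cells likewise 5 and 1, against 30.2% and 26.1% of all genes called in either direction. The 5 higher were Dusp4, Dusp6, Spry4, Spred1, and Spred2 in both lines, the lower was Spry1 in both, and none passed the 1.5-fold test. JMO cells had 5 members higher and 2 lower than IR cells, against 42.4% of all genes. Compared with K1030R and with ∆CT cells they had 3 higher, Dusp4, Dusp5, and Dusp6, and 4 lower, Spry1, Spry2, Spred1, and Spred2, against 35.4% and 38.8% of all genes. The largest of these was Spry1, at -0.99 against K1030R (adjusted p = 3.23e-10) and -1.02 against ∆CT cells (adjusted p = 8.88e-11). Against ∆CT cells the Spred2 difference (-0.14, adjusted p = 0.0116) was -0.08 without ∆CT replicate 2 (adjusted p = 0.172). A fit of only the groups compared did not call it either (adjusted p = 0.063). The Dusp4 difference between K1030R and IR cells (0.36, adjusted p = 0.0113) lost its call without IR replicate 2 (adjusted p = 0.0627), IR replicate 3 (0.0613), or K1030R replicate 3 (0.0628). Spry4 between JMO and K1030R cells (-0.33, adjusted p = 0.0688) gained one without K1030R replicate 2 (0.0242) or JMO replicate 1 (0.0439), and with no filter on low counts (0.0457). So did Dusp1 between JMO and ∆CT cells (0.20, adjusted p = 0.0559) without ∆CT replicate 3 (0.0164), IR replicate 3 (0.0418), JMO replicate 3 (0.0472), or stimulated JMO replicate 2 (0.0434) or 3 (0.0432), and Dusp1 between ∆CT and IR cells (-0.16, adjusted p = 0.169) without IR replicate 3 (0.0466).

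Insulin was added for 15 min to ask which of these genes respond, and in which receptor lines. DKO cells had no insulin libraries, so a rise that does not depend on the added receptor could not be measured. In IR cells 5 of 10 members rose, Dusp1, Dusp5, Dusp6, Spry2, and Spry4, against 1.4% of all genes called higher. In ∆CT cells 5 rose, Dusp1, Dusp5, Dusp6, Spry1, and Spry2, against 0.935%. In K1030R cells 1 rose, Dusp1, against 0.11%, and in JMO cells 1 rose, again Dusp1, against 0.331%. None of the 10 fell in any line. At 1.5-fold, Dusp1, Dusp5, and Dusp6 passed in IR and in ∆CT cells, against 0.214% of all genes in each, Dusp1 passed in JMO cells, against 0.039%, and no member passed in K1030R cells, against 0.0%. The median change of the 10 members was 0.34 in IR, 0.42 in ∆CT, 0.10 in K1030R, and 0.13 in JMO cells.

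Dusp5 had the largest response. IR libraries were at 19.1, 19.9, and 17.3 CPM after insulin against 5.17, 4.51, and 4.40 CPM before, and ∆CT libraries at 16.8 and 17.8 CPM against 4.98, 5.54, and 4.71 CPM. The stimulated libraries of both lines stood above every DKO library. The log2 fold change was 1.99 (SE 0.095, adjusted p = 3.25e-18) in IR and 1.77 (SE 0.10, adjusted p = 1.23e-15) in ∆CT cells. K1030R libraries overlapped before and after insulin, at 6.22, 5.75, and 5.56 CPM after, a change of 0.11 (95% confidence interval -0.10 to 0.33, adjusted p = 0.971). JMO libraries were at 10.2, 9.65, and 11.0 CPM after insulin, above their 3 basal values, with a change of 0.25 (95% confidence interval 0.07 to 0.44) that was not called (adjusted p = 0.416).

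Dusp1 rose in all 4 lines, and whether it would also rise in DKO cells was not tested. In IR cells it went to 31.3, 33.0, and 32.3 CPM from 12, 11.5, and 9.93 CPM (log2 fold change 1.53, SE 0.074, adjusted p = 8.25e-18), and in ∆CT cells to 26 and 27.7 CPM from 9.44, 9.54, and 11.0 CPM (1.43, SE 0.084, adjusted p = 2.3e-15). In JMO cells it went to 24.5, 22.0, and 27.2 CPM from 11.3, 12.2, and 10.9 CPM (1.10, SE 0.075, adjusted p = 2.59e-12). In K1030R cells it went to 16.6, 16.8, and 15.8 CPM from 10.2, 10.6, and 10.5 CPM (0.65, SE 0.081, adjusted p = 9.52e-06). Basal and stimulated libraries did not overlap in any line. As a share of the DKO basal mean, the stimulated means were 196% in IR, 164% in ∆CT, 149% in JMO, and 99.8% in K1030R cells.

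Dusp6 rose 2.35-fold in IR and 2.13-fold in ∆CT cells without returning to the level of DKO cells. IR libraries were at 19.7, 21.2, and 21.5 CPM after insulin (log2 fold change 1.24, SE 0.10, adjusted p = 3.95e-11) and ∆CT libraries at 24.0 and 23.1 CPM (1.09, SE 0.10, adjusted p = 3.14e-09). The means were 69.4% and 78.7% of the DKO basal mean, whereas those of Dusp5 were 206% and 191%. JMO libraries were at 22.1, 20.2, and 20.2 CPM, inside or close to the stimulated IR range, from a higher basal level, so that the change was 0.36 (95% confidence interval 0.18 to 0.55, adjusted p = 0.0801). That value was called when 1 of 5 libraries of other lines was left out, with an adjusted p of 0.0196 without basal ∆CT replicate 3 and of 0.0399 to 0.0479 without basal K1030R replicates 1 or 2, stimulated K1030R replicate 3, or basal ∆CT replicate 1. It was also called with no filter on low counts (adjusted p = 0.000996), in a fit of only the groups compared (0.0117), and with limma voom (0.0435). In K1030R cells, at 12.9, 12.1, and 15.3 CPM, the change was 0.18 (95% confidence interval -0.02 to 0.39, adjusted p = 0.88).

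The Sprouty responses were smaller. Spry2 went to 40.3, 41.1, and 38.9 CPM in IR cells from 29.9, 28.5, and 29.0 CPM (log2 fold change 0.46, SE 0.069, adjusted p = 3.5e-05) and to 43.4 and 36.6 CPM in ∆CT cells from 30.1, 30.4, and 27.1 CPM (0.45, SE 0.076, adjusted p = 0.000359). Without the first stimulated ∆CT library the latter was 0.33 (adjusted p = 0.0959). In K1030R and JMO cells the change of Spry2 was 0.24 in each, with adjusted p of 0.323 and 0.287. With no filter on low counts the Spry2 change in K1030R cells was called (adjusted p = 0.0201). Spry4 went to 5.08, 6.11, and 5.38 CPM in IR cells (0.74, SE 0.16, adjusted p = 0.006), and without basal IR replicate 2 it was 0.70 (adjusted p = 0.052). In ∆CT cells Spry4 was at 9.87 and 7.01 CPM after insulin, the lower of which lay inside the basal range (0.47, adjusted p = 0.208). With no filter on low counts this Spry4 change was called (0.48, adjusted p = 0.0439). Spry1 in ∆CT cells was at 23.2 and 21.1 CPM (0.39, SE 0.095, adjusted p = 0.0235). The call was lost without basal ∆CT replicate 3 (adjusted p = 0.156) and in a fit of only the groups compared (0.40, adjusted p = 0.351). It also rested on both stimulated ∆CT libraries: without the first or second it was lost, and the change was 0.33 or 0.46. Stimulated Spry1 libraries were also above all basal ones in K1030R cells, at 20.8, 19.6, and 20.3 CPM (0.30, 95% confidence interval 0.13 to 0.48, adjusted p = 0.276), and in IR cells, at 23.3, 23.7, and 23 CPM (0.22, 95% confidence interval 0.05 to 0.39, adjusted p = 0.188). With no filter on low counts the K1030R change was called (adjusted p = 0.0235). The Spry1 response in ∆CT cells was not called different from that in IR cells (0.18, 95% confidence interval -0.08 to 0.43).

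Dusp4, Dusp7, Spred1, and Spred2 had no called response in any line. Dusp4 changed by -0.04 to 0.05 on the log2 scale, with intervals that reached from -0.26 to 0.28. Dusp7 changed by -0.14 to -0.02, Spred1 by -0.04 to 0.03, and Spred2 by 0.01 to 0.10. Dusp4, the member with the second-largest basal fall in IR cells, was thus at 30.8% of the DKO level before and 30.7% after insulin. By RefSeq annotation the 3 members past the 1.5-fold test span 2.88 kb (Dusp1), 12.7 kb (Dusp5), and 4.26 kb (Dusp6). The 7 others span 4.65 kb (Spry1), 4.87 kb (Spry2), 7.17 kb (Dusp7), 12.3 kb (Dusp4), 15.1 kb (Spry4), 61.2 kb (Spred1), and 99.6 kb (Spred2). In GENCODE Dusp1 spans 56.5 kb. A link between span and response was not tested.

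**Figure D3:**
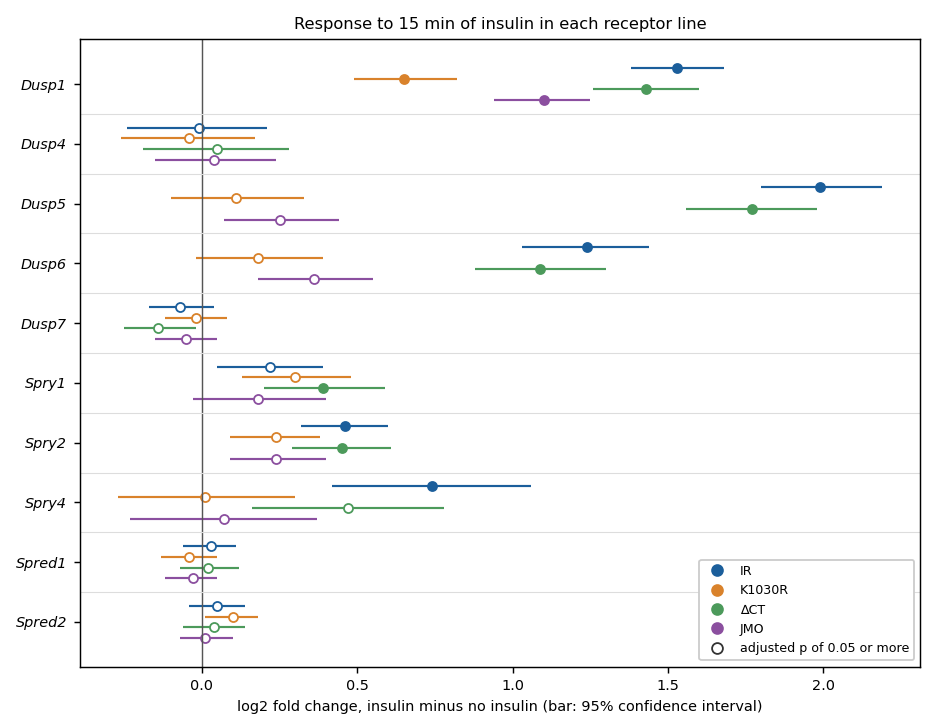
Log2 fold change of each gene after 15 min of insulin in IR, K1030R, ∆CT, and JMO cells, with 95% confidence intervals, where filled points had an adjusted p below 0.05 in edgeR. Dusp5 and Dusp6 separate IR and ∆CT cells from K1030R and JMO cells, and Dusp1 is to the right of 0 in all 4 lines.

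The responses themselves were then compared between lines, as differences of log2 fold changes in the same model. Relative to IR cells the response was smaller in K1030R cells for 3 members, Dusp5 (-1.88, SE 0.14, adjusted p = 8.27e-12), Dusp6 (-1.05, SE 0.14, adjusted p = 1.03e-05), and Dusp1 (-0.87, SE 0.11, adjusted p = 1.72e-06), against 0.37% of all genes called. In JMO cells it was smaller for 2 members, Dusp5 (-1.74, SE 0.13, adjusted p = 7.96e-12) and Dusp6 (-0.87, SE 0.13, adjusted p = 0.00014), against 0.279%. For Dusp1 the JMO response was below that of IR cells by a difference of -0.43 (95% confidence interval -0.65 to -0.22) that was not called (adjusted p = 0.0756). It was called without basal IR replicate 1 (-0.50, adjusted p = 0.0347), basal ∆CT replicate 3 (-0.43, adjusted p = 0.0465), or stimulated JMO replicate 3 (-0.52, adjusted p = 0.00855), and with no filter on low counts (-0.44, adjusted p = 0.0154). For Spry4 the K1030R response was below that of IR cells by -0.72 (adjusted p = 0.225), which was called with no filter (adjusted p = 0.0243). These comparisons share the IR libraries.

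No member differed in response between ∆CT and IR cells (edgeR, with 0 members at an unadjusted p below 0.05), against 0.00649% of all genes. The intervals of the difference were -0.33 to 0.13 for Dusp1, -0.51 to 0.06 for Dusp5, -0.44 to 0.15 for Dusp6, and -0.72 to 0.18 for Spry4. Nor was a member called between JMO and K1030R cells, against 0.026% of all genes. The nearest was Dusp1, whose response was larger in JMO cells by 0.44 (95% confidence interval 0.22 to 0.67) with an unadjusted p of 0.000329 and an adjusted p of 0.421, and it was the 1 member with an unadjusted p below 0.05.

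**Figure D4:**
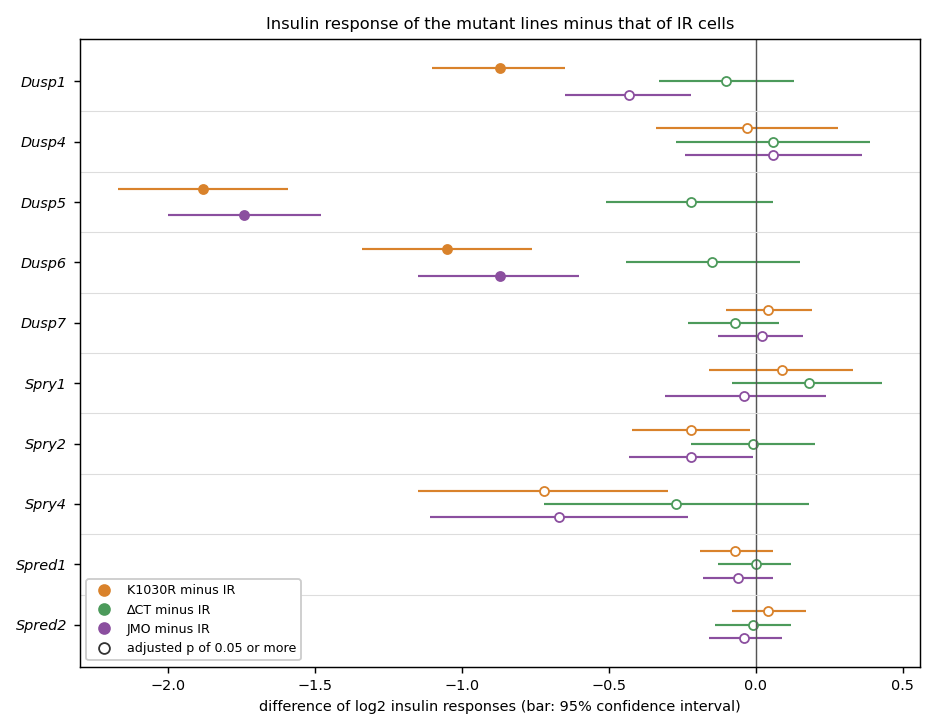
Insulin response of K1030R, ∆CT, and JMO cells minus that of IR cells for each gene, as a difference of log2 fold changes with 95% confidence intervals, where filled points had an adjusted p below 0.05 in edgeR. Dusp5 and Dusp6 are far to the left of 0 for K1030R and JMO cells, while the intervals of all 10 genes for ∆CT cells include 0.

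Other genes of the pathway were counted in the same fits. Of all genes tested, 25.6% were higher and 24.1% lower than DKO in IR cells. After insulin 1.4% were called higher in IR, 0.935% in ∆CT, 0.331% in JMO, and 0.11% in K1030R cells. Of 9 genes for adaptors and Ras, 5 were lower and 1 higher than DKO in IR cells (median log2 fold change -0.11), and 0 were called after insulin in any line. Gab1, an adaptor, was higher by 0.43 (SE 0.051, adjusted p = 1.05e-08). Of 11 genes for the kinase cascade and its scaffolds, 6 were higher and 1 was lower in IR cells (median 0.13). Map2k1, which encodes MEK1, was the lower one in IR cells (-0.23, adjusted p = 1.95e-05), and Rps6ka2, an ERK-activated kinase of the RSK family, rose most (0.77, adjusted p = 2.84e-14). After insulin 1 gene of this list, Araf, was called higher, in IR cells only (0.17, adjusted p = 0.0219). Its mean also went up without a call in the other lines. It went from 70.2 to 77.8 CPM in K1030R, 72.0 to 77.4 in ∆CT, and 75.6 to 81.0 in JMO cells, against 68.9 to 77.2 in IR cells.

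Of 6 other dual-specificity phosphatases tested, 4 were lower and 1 higher than DKO in IR cells, against 24.1% and 25.6% of all genes. None was called after insulin in any line. Dusp3 (VHR) was the lowest in K1030R (-0.73, adjusted p = 8.27e-13), ∆CT (-0.89, adjusted p = 4.95e-15), and JMO cells (-0.65, adjusted p = 2.21e-11), and Dusp9 in IR cells (-0.75, adjusted p = 3.77e-07). Dusp10 (MKP-5), which acts on p38 and JNK, was higher in all 4 lines, by 0.63 in IR (adjusted p = 1.28e-10) and 0.27 in JMO cells (adjusted p = 0.000818). Among 13 other negative regulators of receptor tyrosine kinase signalling, 5 were higher and 5 lower in IR cells, against 25.6% and 24.1% of all genes. Errfi1, a feedback inhibitor of the EGF receptor, fell most in every line, by log2 fold changes of -1.35 in ∆CT, -1.22 in K1030R, -1.15 in IR, and -0.76 in JMO cells (adjusted p from 4.26e-17 to 3.25e-11). It rose after insulin by 1.28 (SE 0.065, adjusted p = 8.14e-16) in IR and 1.61 (SE 0.072, adjusted p = 2.74e-17) in ∆CT cells, and its means in K1030R cells were 29.2 ± 1.80 CPM before and 28.8 ± 3.01 CPM after insulin (SD, n = 3). The response of Errfi1 was smaller than in IR cells by -1.30 in K1030R (adjusted p = 4.53e-11) and by -1.12 in JMO cells (adjusted p = 4.95e-10).

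Of 9 ERK output genes outside the 10 members, 8 were lower and 1 higher than DKO in IR cells (median -1.24), 6 and 1 in K1030R (-0.64), 8 and 1 in ∆CT (-0.66), and 5 and 1 in JMO cells (-0.36). The lower and higher shares of all genes were 24.1% and 25.6% in IR and 20.4% and 21.2% in K1030R cells. They were 22.9% and 23.4% in ∆CT and 17.4% and 16.8% in JMO cells. Fosl1, a member of the AP-1 family, had the largest fall in IR (-2.45, adjusted p = 1.04e-14), K1030R (-1.27, adjusted p = 1.67e-09), and ∆CT cells (-1.60, adjusted p = 2.07e-11), and Etv1, an ETS factor, in JMO cells (-0.91, adjusted p = 5.27e-11). The 1 that was higher in each line was Epha4. After insulin 3 of the 9 rose in IR and 3 in ∆CT cells, against 1.4% and 0.935% of all genes. In K1030R and JMO cells 0 rose, against 0.11% and 0.331%. The largest rises were of Fosl1 in IR (0.99, adjusted p = 0.000204) and Phlda1 in ∆CT cells (1.01, adjusted p = 5.24e-10). These lists were compiled with results of the same libraries known, and their counts are given as description.

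Likeness of pattern was described by Pearson's r between means of log2 CPM over the 9 groups. The points share libraries and scaling. Nearest to Dusp5 was Egr2 (r = 0.981), a transcription factor of the immediate early class. Dusp4 was followed by Xylt1 (0.999) and Nemp1 (0.993), Dusp1 by 5430416N02Rik (0.971) and Srsf5 (0.966), and Dusp6 by Gm44715 (0.978) and Cep290 (0.962). Spred2 came with Usp47 (0.993), Spry2 with Zfp326 (0.987) and Zmynd11 (0.962), Spred1 with Dbf4 (0.983) and Zfp955b (0.978), and Spry1 with Arhgap21 (0.981) and Armcx1 (0.976). The lowest of these were Haus3 (0.962) and Naa30 (0.939) for Spry4 and Rpa2 (0.958) and Sec23ip (0.933) for Dusp7. Among the members the closest were Spry1 and Spry2 (0.91), Spred2 and Spry4 (0.89), and Dusp1 and Dusp5 (0.89).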

How the data were processed

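Polyadenylated RNA was measured in 26 libraries of mouse brown preadipocytes. According to the methods and processing notes of the study, fastp trimmed the reads, kallisto placed them on mouse transcripts of Ensembl, and tximport gave sums per gene. Tool versions are not given in the sources used here. The values used are the authors' expected counts per gene as deposited, of which 79.9% are exactly whole. After rounding, a gene was kept if its CPM exceeded 0.5 in 4 or more libraries (15402 genes), and libraries were scaled with TMM factors, so that a CPM is relative to the rest of the RNA. A quasi-likelihood model with a mean for each group was fitted over the whole table in edgeR 4.0.16 (R 4.3.3), and p-values were adjusted by Benjamini-Hochberg over all genes tested. A gene was called at an adjusted p below 0.05, and glmTreat with a minimum fold of 1.5 gave the stricter call. SE come from the fit, and SD are over dishes. The procedure was tested on simulated data. The biological coefficient of variation that edgeR estimated in common for all genes, which leaves out counting noise, was 4.44%. The p-values measure the spread between dishes of a line. Alternatives were RLE scaling, other filters, unrounded counts, DESeq2 1.42.0, limma 3.58.1 voom, fits of only the groups compared, a replicate block, and each library left out in turn.

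The 10 members, the pathway lists, and the marker lists were chosen with earlier results of these data known. Named genes outside the members are the called gene of each list with the largest rise and fall in a comparison, and the 2 genes with the highest correlation to a member (prior count 2). One of those for Dusp5 had the same counts as Egr2, and one for Spred2 had no symbol, and these are not named. One further gene that the rule would name is not reported here. Coordinates are from GENCODE mouse release M21 and promoters from RefSeq, both on GRCm38. Promoters were matched by symbol for 8 members.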

Additional observations from a re-analysis of the deposited data

Results flagged for a closer look

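The insulin response of 3 genes differed between lines by a test of the difference itself (edgeR quasi-likelihood test, adjusted over all genes tested). Dusp5 responded less than in IR cells by -1.88 in K1030R and -1.74 in JMO cells on the log2 scale, and Dusp6 by -1.05 and -0.87. For Dusp1 the difference was -0.87 in K1030R cells, where all 3 stimulated libraries nonetheless lay above all 3 basal ones. Basal Spry1 was above DKO cells in IR, K1030R, and ∆CT cells and below them in JMO cells, and JMO cells differed from those lines by -1.28, -0.99, and -1.02 on the log2 scale. No cause of these differences was tested, and each receptor was present as 1 line.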

How the results depend on the processing

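Of 180 member values, 80 were called, and 70 of these were called under every alternative apart from the minimum fold. The other 10 lost their call in some setting, 10 uncalled values gained one, no called value changed sign, and 39 uncalled values of at most 0.10 on the log2 scale did. With the minimum fold of 1.5 the members called against DKO fell to 4 in IR cells, 3 in ∆CT cells, and 2 each in K1030R and JMO cells. Against IR cells they fell to 0 for K1030R cells, 0 for ∆CT cells, and 3 for JMO cells, and JMO cells had 1 against K1030R and 1 against ∆CT. After insulin the count was 3 in IR cells, 3 in ∆CT cells, and 0 in K1030R cells. With no filter on low counts 3 members were called after insulin in K1030R and 2 in JMO cells, and JMO cells also had 2 with limma voom and with only the groups compared, where ∆CT against IR in the basal state had 3. The cause was not tested. Over the refits without 1 library, the count after insulin ran from 3 to 5 in ∆CT and from 1 to 2 in JMO cells. Replicate numbers did not pair the libraries: among 100 pairs with the same number the median r of deviations from the group mean was -0.00111, and 7 of 26 libraries were closest to their own number. A fit with the replicate block called 8 members in IR cells against DKO, as without it, and changed no call. Depth limits Spry4 most, at 57 to 223 counts per library.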
